A study of Mus musculus with 80 samples.

Results

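The effect of pioglitazone (Pio) on RXR-liver DNA binding was examined in wildtype (WT) mice fed control diet, by comparing the peak lists of 5 Pio livers with those of 5 Control livers. These 10 ChIP libraries, of 40 in the series, were taken by their titles. Intervals of the 10 lists that overlapped by at least 1 bp were merged into 75674 sites, and any peak of a liver inside a site counts as a call there. Sites with calls from 3 or more of the 5 Pio livers and from 0 of the 5 Control livers are termed gained, and those with the opposite pattern lost. There were 3919 gained sites (5.18% of all sites) and 21 lost sites (0.0278%). The mice were male C57BL6/J animals, 5 months old at the end of 12 weeks on diet. Control mice ate the control (low-fat) diet alone and Pio mice the same diet with pioglitazone, a drug that activates PPARγ. Livers used only for comparison came from WT mice on high-fat diet alone (HFD) or with pioglitazone (HFD-Pio), and from mice lacking PPARγ in the liver (KO) on control diet, alone (KO Control) or with pioglitazone (KO Pio). The knockout was made by breeding PPARγ-loxP mice to mice whose Cre is driven by the albumin promoter, so that it acts in hepatocytes, and per the methods the WT mice were purchased C57BL6/J animals. All samples were whole liver tissue, so that a change in the cells present and a change within cells cannot be told apart.

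RXR is a nuclear receptor that binds DNA as a heterodimer with partners such as PPARγ, PPARα, LXR and FXR. The element best known for PPAR with RXR is DR1, a direct repeat of AGGTCA with 1 base between the repeats, and such elements usually lie in introns, promoters and distal enhancers. Ligand binding to PPARγ changes the coregulators that the heterodimer recruits. In fat and in fatty liver PPARγ is known for genes of lipid uptake and lipid droplets. Processed pseudogenes are genomic copies of spliced mRNA.

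Gained sites lay mainly in annotated exons, either of protein-coding genes (1986, 50.7%) or of pseudogenes. Coding exons held 1685 of them (43.0%), 3′ UTRs 285 (7.27%), 5′ UTRs 16 (0.408%), pseudogenes 1464 (37.4%) and other annotated exons 68 (1.74%). Introns held 164 (4.18%), the 5 kb upstream of genes 21 (0.536%), the 1 kb downstream 4 (0.102%) and all other sequence 212 (5.41%). Thus 3518 of 3919 (89.8%) lay in annotated exons, which make up 4.70% of the genome. Of all 75674 sites 12252 (16.2%) did, and of the 87 sites called in 3 or more Control livers 4 (4.60%) did. The reference sequence (mm10, plus strand, 100 bp either side of the summit) of gained sites that rank high by livers called and fold enrichment, and are clear of UTRs, shows the kind of sequence involved. In these exon and pseudogene windows capitals mark annotated exon bases.
Rpl32, chr6:115807024-115807224: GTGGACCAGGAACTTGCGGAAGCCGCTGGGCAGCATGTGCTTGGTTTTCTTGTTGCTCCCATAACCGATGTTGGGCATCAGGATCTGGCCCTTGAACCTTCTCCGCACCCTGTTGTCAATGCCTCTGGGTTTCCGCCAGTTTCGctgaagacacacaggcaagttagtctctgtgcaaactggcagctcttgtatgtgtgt
Gm6170, chr1:128520012-128520212: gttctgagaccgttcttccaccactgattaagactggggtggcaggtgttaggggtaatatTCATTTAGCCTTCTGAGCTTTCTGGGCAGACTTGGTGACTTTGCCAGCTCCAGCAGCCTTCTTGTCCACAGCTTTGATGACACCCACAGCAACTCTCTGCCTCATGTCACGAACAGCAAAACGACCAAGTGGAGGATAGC
Gm18119, chr10:77652880-77653080: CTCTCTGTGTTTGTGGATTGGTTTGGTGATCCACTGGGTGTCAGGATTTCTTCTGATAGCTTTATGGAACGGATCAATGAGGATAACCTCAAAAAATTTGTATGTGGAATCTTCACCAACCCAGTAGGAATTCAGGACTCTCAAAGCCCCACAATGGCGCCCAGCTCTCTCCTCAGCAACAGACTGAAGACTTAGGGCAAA
Rps19-ps6, chr12:110898322-110898522: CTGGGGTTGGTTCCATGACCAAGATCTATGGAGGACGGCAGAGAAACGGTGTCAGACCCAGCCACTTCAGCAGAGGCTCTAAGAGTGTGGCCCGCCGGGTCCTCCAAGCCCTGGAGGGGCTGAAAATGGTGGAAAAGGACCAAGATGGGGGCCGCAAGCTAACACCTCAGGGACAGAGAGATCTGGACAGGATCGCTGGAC

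The 10 ChIP libraries kept between 2.50 and 4.05 M tags after removal of duplicates, and the ranges of the groups overlapped. The fragment length that MACS2 estimated was between 183 and 292 bp in the Control livers. In Pio livers 1 and 4 it was 191 and 263 bp, and in Pio livers 2, 3 and 5 it was 48, 45 and 48 bp, which is about the length of a read. The shares of peaks in exons of protein-coding genes and in pseudogenes are given without the latter livers as well. So are the number of peaks and the counts of gained sites. The other shares by annotation and the results by gene, gene list, pseudogene and transcript position use all 5 Pio livers. Pio liver 4 had the fewest peaks of its group and the lowest fold enrichment at most of the strongest sites. Nothing in the labels names a sequencing batch.

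The lists of the Pio livers held 6115, 14008, 33705, 1905 and 13844 peaks in livers 1 to 5, and those of the Control livers held 1036, 12919, 2032, 7083 and 2074. The groups overlapped widely. The mean log2 number of peaks was 13.21 ± 1.56 (SD, n = 5) in Pio and 11.69 ± 1.49 (SD, n = 5) in Control livers, and the difference of 1.51 did not pass the exact two-sided permutation test over livers (p = 0.190, adjusted p = 0.254 over 12 measures). With Pio livers 1 and 4 alone the difference was 0.04 (exact permutation p = 1). The smallest p that 5 livers against 5 can give is 0.00794.

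What differed was where the peaks lay. Exons of protein-coding genes held the summits of 32.3, 23.7, 20.5, 14.9 and 24.3% of the peaks in Pio livers 1 to 5, and of 3.86, 0.782, 1.53, 1.24 and 5.59% in Control livers 1 to 5. Each Pio liver lay above each Control liver, and the means were 23.1 ± 6.32% and 2.60 ± 2.05% (SD, n = 5 each), a difference of 20.5 percentage points (exact permutation p = 0.00794, adjusted p = 0.0136). These exons make up 2.76% of the genome. Pseudogenes outside those exons, which make up 0.371% of the genome, held 23.8, 15.7, 9.75, 15.6 and 15.6% of the peaks in Pio livers 1 to 5. In the Control livers the share ran from 0.0424 to 0.530%, and the groups again did not overlap (difference 15.9 percentage points, exact permutation p = 0.00794, adjusted p = 0.0136). Livers 1 and 4, whose fragment estimates were over 50 bp, showed both differences as well, since the lowest of their shares stood above the highest Control value.

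By kind of exon, coding exons held 17.8 ± 5.51% of the peaks in Pio and 1.33 ± 1.10% in Control livers (SD, n = 5 each), and 3′ UTRs held 4.97 ± 0.944% and 1.16 ± 0.984% (exact permutation p = 0.00794 for each, adjusted p = 0.0136). 5′ UTRs held 0.397 ± 0.264% and 0.113 ± 0.0449% (exact permutation p = 0.0159, adjusted p = 0.0238). The classes where enhancers and promoters lie took a smaller share with Pio. Introns outside all annotated exons held 22.2 ± 3.32% of the peaks in Pio and 36.9 ± 2.56% in Control livers. The 5 kb upstream of protein-coding genes held 2.03 ± 0.337% and 3.16 ± 0.502%, and all other sequence outside genes held 34.7 ± 7.97% and 55.9 ± 2.76% (SD, n = 5 each; exact permutation p = 0.00794 and adjusted p = 0.0136 for each of the 3). These are shares of each list, which must add up, and the log2 number of peaks outside all annotated exons differed by less than the spread between livers (12.43 ± 1.63 in Pio, 11.63 ± 1.51 in Control, exact permutation p = 0.421, adjusted p = 0.505). The log2 median fold enrichment of all peaks was 1.95 ± 0.13 in Pio and 1.96 ± 0.14 in Control livers (SD, n = 5 each; exact permutation p = 0.937, adjusted p = 0.937).

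**Figure D1:**
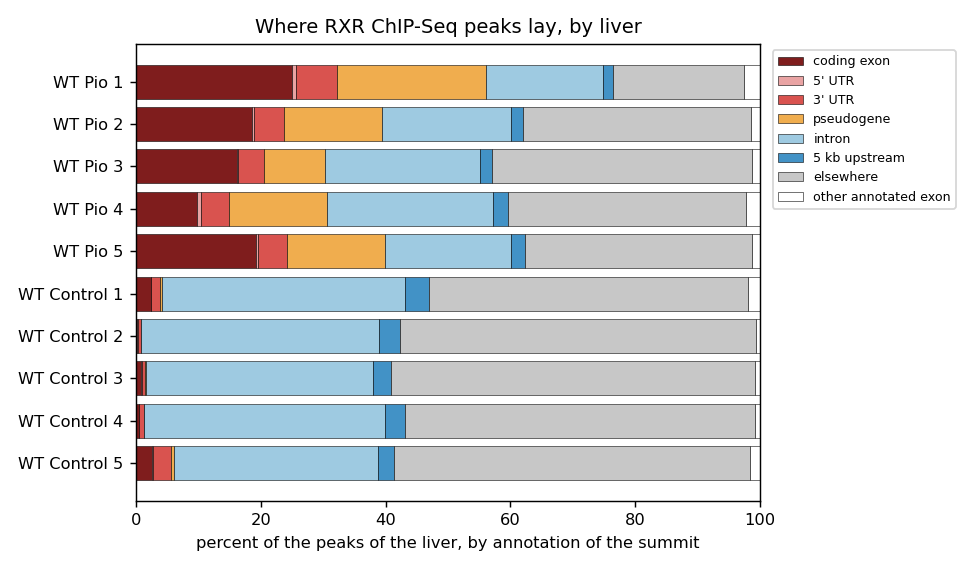
Percent of the peaks of each liver by the annotation of the summit, 1 bar per liver, with Pio livers above and Control livers below. Coding exons, UTRs and pseudogenes together take a visible share of the 5 Pio bars and almost none of the Control bars, where introns and other sequence fill nearly all of the list; the grey part includes the 1 kb downstream of genes.

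Of the 75674 sites, 67901 (89.7%) were called in a single liver. Of the gained sites 559 were called in all 5 Pio livers, 1985 in 4 and 1375 in 3. Just outside the rule lay 2340 sites called in 2 Pio livers and no Control liver, and 37 called in 3 or more Pio livers and 1 Control liver. The strongest site just inside, called in 3 Pio livers, lay in the pseudogene Gm15464 with fold enrichments of 10.3, 19.1 and 7.51 in Pio livers 2, 3 and 5. The strongest just outside lay in the pseudogene Gm12362 with 8.34 and 12.95 in Pio livers 1 and 3. The same annotation marked both sides of the threshold, since annotated exons held 87.5% of the sites called in 3 Pio livers and 80.0% of those called in 2. The counts that meet the rule are a description and carry no test.

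The gained sites were not spread evenly over the Pio livers. Pio liver 3, which had the longest list, called 99.2% of them, Pio livers 1, 2 and 5 called 85.3, 89.0 and 89.1%, and Pio liver 4 called 16.5%. The combination of livers 1, 2, 3 and 5 alone gave 1920 sites (49.0%). Only 535 gained sites (13.7%) were called solely in the 3 livers with short fragment estimates, and annotated exons held 88.0% of these and 90.0% of the other 3384. Called in both livers with the longer estimates and in no Control liver were 612 sites, of which annotated exons held 87.1%. Without Pio liver 3 the count was 2566, of which 89.9% were exonic. Tested singly by Fisher's exact test (two-sided, livers with against livers without a call), 0 of the 4163 sites called in at least 3 livers had an adjusted p below 0.05 (smallest adjusted p 0.0591). Unadjusted, 2562 of them had p below 0.05, all with more Pio livers. These calls are the ones that define gained sites, and 2544 of the 2562 are gained sites of 4 or 5 Pio livers, so the test restates the rule and adds no support to it.

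**Figure D2:**
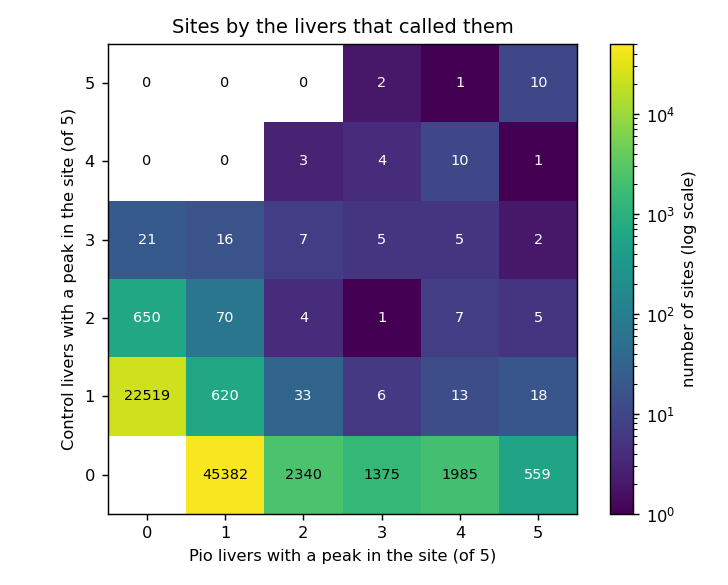
Number of sites by how many of 5 Pio livers (horizontal) and of 5 Control livers (vertical) called them, with colour on a log scale. The bottom row, with 0 Control livers, holds 1375, 1985 and 559 sites at 3, 4 and 5 Pio livers, whereas the left column holds 21 sites at 3 Control livers and none at 4 or 5.

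Acta1 encodes skeletal muscle α-actin, and its site was the strongest in coding exons, with fold enrichments of 13.95, 11.5, 44.6, 4.57 and 18.9 in Pio livers 1 to 5. The coding sequences of the actin genes are alike, so that reads may be split among paralogs and the gene named is uncertain. Serf2, a small protein that modifies amyloid formation, had 12.5, 15.9, 38.2, 3.10 and 19.7 at chr2:121450572-121451080, a site that lay wholly in exons. In both the value was lowest in Pio liver 4, and no Control liver called a peak. The Rpl32 window shows how a peak met an exon edge, since 144 bases of the window are exon and the summit lay in the exon.

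Among 3′ UTRs the leading sites were in Atp1b1, the β subunit of the sodium pump, in Emd, which encodes the nuclear envelope protein emerin, and in Marcks, a substrate of protein kinase C. Their mean fold enrichments over the 5 Pio livers were 17.4 ± 9.24, 15.3 ± 7.99 and 14.7 ± 7.93 (SD), and all 3 sites lay wholly in exons. Among 5′ UTRs they were in Sat1 (polyamine acetylation, 12.3 ± 5.77), in Eif1 (start codon selection, 10.8 ± 6.86) and in Gm10073 (12.8 ± 5.00, called in 4 Pio livers). Other annotated exons gave Igkv1-133 and Igkv16-104, variable segments of the immunoglobulin κ locus, with 13.9 ± 7.79 and 12.6 ± 7.68, and the long non-coding RNA Malat1 with 10.97 ± 4.64. None of these had a peak in a Control liver.

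**Figure D3:**
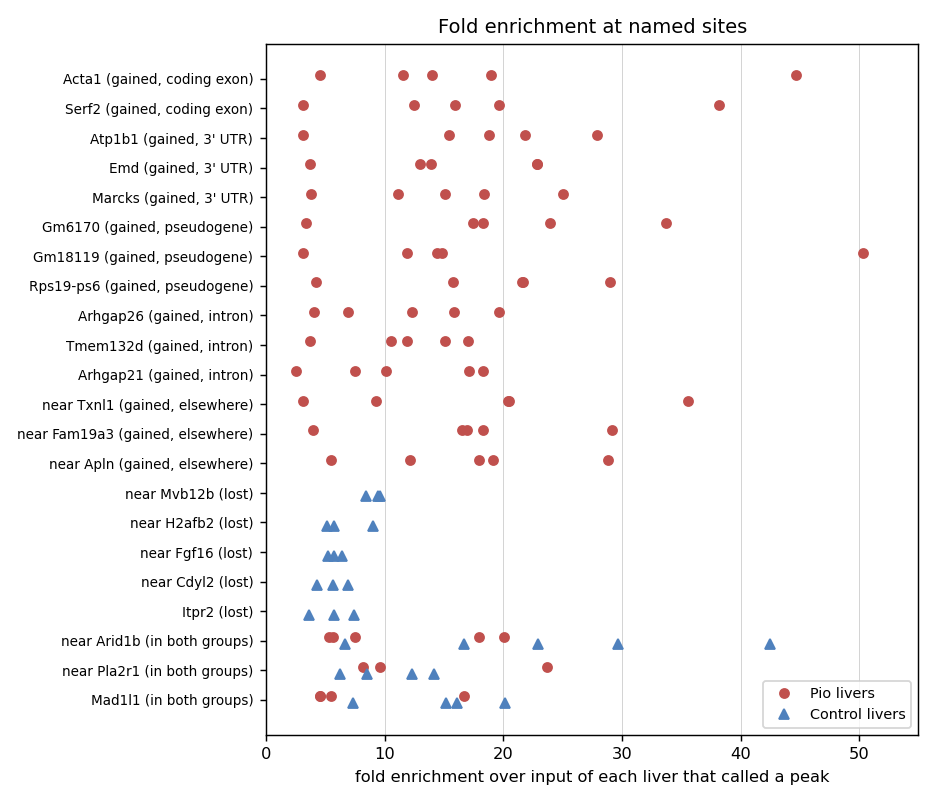
Fold enrichment over input in each liver that called a peak, at the leading gained sites of 5 annotation classes, the leading lost sites and the strongest sites common to both groups (circles, Pio livers; triangles, Control livers). Gained sites reach 50.3 at Gm18119, lost sites stay below 10 and the lowest circle of a gained site is mostly Pio liver 4; a liver without a peak has no point.

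Gained exonic sites fell in 1097 of 21938 protein-coding genes (5%), and sites in exons, introns or flanks in 1258 (5.73%). There were 626 genes with a single gained exonic site, 241 with 2 and 230 with 3 or more. In the latter 230 genes, exons held 878 gained sites and introns held 5. These genes were picked by their exonic sites, so that contrast follows in part from the choice. Over all protein-coding genes, exons held 1986 gained sites and introns 164. Hsp90b1, an endoplasmic reticulum chaperone, had the most, with 9 gained exonic sites and 0 intronic ones. Of these 9, Pio livers 1 to 5 called 8, 6, 9, 2 and 8. Slc26a3 (the chloride and bicarbonate exchanger of the colon), Anxa2 (a calcium-dependent membrane-binding protein) and Hnrnpa2b1 (an RNA-binding protein) had 8 each. Ghitm, Actg2 (smooth muscle γ-actin), Arpc2 (actin branching), Pkm (pyruvate kinase) and Ugp2 (synthesis of UDP-glucose) had 7 each. In these 9 genes, which were ranked by exonic sites, no gained site was intronic. Pio liver 4 called between 0 and 3 of the sites of each of these genes, and Control livers called none.

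The median gained exonic site was 318 bp wide with 81.2% of its bases in exons, and 742 of 1986 (37.4%) lay wholly in exons. Exonic sites called in Control livers only numbered 280 and were narrower, with a median of 259 bp. Their median share of bases in exons was 100%, and 204 (72.9%) lay wholly in exons. With the transcript divided into 10 equal parts from the 5′ end, the share of gained exonic sites was 5.99% in part 1, between 13.1 and 14.6% in each of parts 2 to 5, and 4.78% in part 10. The median relative position was 0.415, where 0 is the start and 1 the end of the transcript. Single-exon transcripts held 51 (2.57%) of them.

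Pseudogenes held 1464 gained sites, in 1357 pseudogenes, and 98.1% of these sites were in processed pseudogenes. In all, 1334 of the 10236 annotated processed pseudogenes (13.03%) had a gained site. The strongest was Gm6170 on chromosome 1, with fold enrichments of 17.5, 23.9, 33.7, 3.35 and 18.3 in Pio livers 1 to 5. Gm18119 had 14.8, 11.9, 50.3, 3.16 and 14.4, and Rps19-ps6, named for a ribosomal protein gene, had 15.8, 21.7, 29.0, 4.23 and 21.6. Each was lowest in Pio liver 4, as in the coding exons. The name of the pseudogene gives a protein-coding parent gene for 209 of the 1464 sites. The parent itself had a gained exonic site for 167 of these (79.9%) and was a cytosolic ribosomal protein gene for 145 (69.4%). Of all protein-coding genes 5% had a gained exonic site, but of cytosolic ribosomal protein genes 62 of 81 (76.5%) did. A parent with several copies counts once for each site. A short read from a parent gene and from its processed copies can be placed on either, so these sites are not independent of those in exons.

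Outside all annotated exons lay 401 gained sites, of which 46 were called in all 5 Pio livers. Of the 401, 148 (36.9%) overlapped a pseudogene in RefSeq, against 9 (2.24%) of the same intervals moved by 10 kb. A further look at the whole interval rather than the summit showed that 98 (24.4%) touched a GENCODE exon. Neither held for 204 (50.9%). Leading intronic sites are printed here, with capitals at the stretch closest to DR1, which is no match by the limit used here since it has 4, 4 and 5 mismatches in the order printed.
Tmem132d, chr5:127955094-127955294: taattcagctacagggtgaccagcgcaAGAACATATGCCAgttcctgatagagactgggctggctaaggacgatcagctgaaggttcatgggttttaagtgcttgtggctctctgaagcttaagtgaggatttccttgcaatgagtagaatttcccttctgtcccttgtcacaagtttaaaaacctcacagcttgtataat
Arhgap21, chr2:20900060-20900260: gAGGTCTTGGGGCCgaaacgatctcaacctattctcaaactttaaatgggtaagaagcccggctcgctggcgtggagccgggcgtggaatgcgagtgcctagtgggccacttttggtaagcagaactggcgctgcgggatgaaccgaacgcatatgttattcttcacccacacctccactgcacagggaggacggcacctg
Dnajb6, chr5:29795023-29795223: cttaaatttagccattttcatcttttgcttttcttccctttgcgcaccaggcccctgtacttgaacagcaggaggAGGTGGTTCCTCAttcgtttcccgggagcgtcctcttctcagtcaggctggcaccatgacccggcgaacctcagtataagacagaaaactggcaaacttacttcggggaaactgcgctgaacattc

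Tmem132d, a neural membrane protein, had fold enrichments of 10.5, 11.9, 17.04, 3.69 and 15.1 in Pio livers 1 to 5 at chr5:127954922-127955461. Arhgap21, a GTPase-activating protein, had 10.2, 17.1, 7.48, 2.55 and 18.3 at chr2:20899765-20900345. The Dnajb6 site overlapped the RefSeq pseudogene Gm5552, and the site in Arhgap26, the strongest of the intronic class with a mean of 11.8 ± 6.35 (SD, n = 5), had 23.9% of its bases in an annotated exon. Upstream of genes, the leading sites were near Tmprss5 (mean 13.6 ± 9.36), Dcaf5 (8.16 ± 3.15) and Dynlrb2 (8.05 ± 4.33), each called in 5 Pio livers. Downstream, Col22a1, Strn3 and Pabpn1 had 7.55 ± 0.986, 6.94 ± 1.78 and 3.97 ± 1.26, each called in 4. Away from genes, sites 117, 14.8 and 14.7 kb from Txnl1, Fam19a3 and Apln had 17.8 ± 12.4, 16.97 ± 8.95 and 16.7 ± 8.66 in 5 Pio livers. In the former pair 70.9 and 49.5% of the bases were annotated exon, and in the latter 0%.

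The 21 lost sites were each called in 3 Control livers, none in 4 or 5. Introns held 10, sequence away from genes 11 and annotated exons 0. Control livers 2, 3 and 4 called 19, 16 and 20 of them, and Control livers 1 and 5 called 6 and 2. Without Control liver 2, 3 or 4 the count of lost sites was 2, 5 or 1, so that it rested on these livers. Only 10 protein-coding genes (0.0456%) had a lost site in an exon, intron or flank. The strongest lay on chromosome 2, 12.2 kb from Mvb12b (chr2:33899920-33900224), with fold enrichments of 8.39, 9.64 and 9.45 in Control livers 1, 2 and 4. Next were sites on the X chromosome nearest to H2afb2 and Fgf16 (means 6.65 ± 2.09 and 5.80 ± 0.579), a site 22.6 kb from Cdyl2 (5.61 ± 1.31) and a site in an intron of Itpr2, the type 2 inositol trisphosphate receptor (5.61 ± 1.91; SD, n = 3 each). The windows at the sites near Mvb12b and Fgf16 hold short tandem repeats, shown with capitals at the stretch closest to DR1, which has 5 mismatches in each and is no match either.
intergenic site, chr2:33899996-33900196: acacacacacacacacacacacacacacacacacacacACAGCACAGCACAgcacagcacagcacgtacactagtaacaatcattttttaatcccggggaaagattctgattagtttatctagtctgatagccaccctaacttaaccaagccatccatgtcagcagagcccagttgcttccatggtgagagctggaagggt
intergenic site, chrX:105667686-105667886: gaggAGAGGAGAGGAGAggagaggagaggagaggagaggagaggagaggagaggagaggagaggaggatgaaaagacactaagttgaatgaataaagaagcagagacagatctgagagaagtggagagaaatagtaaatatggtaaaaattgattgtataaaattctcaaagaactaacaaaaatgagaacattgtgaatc

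Sites common to both groups were few. Only 40 were called in at least 3 livers of each, and 10 in all 10 livers. Of the 40, sequence away from genes held 19, introns 13, coding exons 4, the upstream 5 kb 3 and the downstream 1 kb 1. The strongest, on chromosome 17 at 368 kb from Arid1b, had 17.9, 7.48, 20.04, 5.29 and 5.63 in Pio livers 1 to 5 and 29.7, 6.63, 23.0, 16.7 and 42.5 in Control livers 1 to 5. At this site the groups overlapped. A site 14.7 kb from Pla2r1 had means of 13.8 and 10.3 over 3 Pio and 4 Control livers, and one in an intron of Mad1l1, a spindle checkpoint gene, had 7.81 and 14.7 over 4 and 4.

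DR1 was searched as AGGTCA, any base, AGGTCA on both strands, with up to 2 mismatches in the 12 fixed bases, within 100 bp of the summit. Of the peaks outside annotated exons, 1.90, 1.89, 1.80, 1.56 and 1.64% held a match in Pio livers 1 to 5 and 1.75, 1.57, 1.46, 1.79 and 1.88% in Control livers 1 to 5. The groups overlapped, with means of 1.76 ± 0.152% and 1.69 ± 0.171% (SD, n = 5 each; exact permutation p = 0.492, adjusted p = 0.537). Windows 10 kb away held a match more often in every one of the 10 livers, at 1.99 to 2.56%. Among the gained sites, matches were in 9 of 401 outside exons (2.24%, and 3.74% of windows 10 kb away), in 45 of 1986 in exons (2.27 and 3.02%) and in 35 of 1464 in pseudogenes (2.39 and 2.53%). Among all sites the share was 1.81%, with 2.32% in windows 10 kb away, and of the 21 lost and the 40 common sites 0 held a match. With each list shortened to its 1036 peaks of lowest p, the share outside exons ran from 2.17 to 6.36% in Pio and from 0.881 to 1.75% in Control livers, a difference of 2.86 percentage points (exact permutation p = 0.00794). That comparison rests on 3 to 13 matches per Pio liver, and windows 10 kb from the same Pio peaks held 2.67 to 5.08%.

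Gene lists were read against the 5% of all protein-coding genes that had a gained exonic site. The highest shares were in the actin and tubulin lists, with 6 of 6 and 10 of 12 genes. Both hold isoforms known from muscle or neurons (Acta1, Acta2, Actc1, Actg2, Tubb3) beside ones that most cells use. Next came lists of genes that nearly all cells use, with 62 of 81 cytosolic ribosomal protein genes (76.5%), 35 of 51 splicing factor and hnRNP genes (68.6%), 31 of 46 proteasome subunit genes (67.4%), 16 of 25 chaperone genes (64.0%) and 23 of 38 translation factor genes (60.5%). Nuclear genes of oxidative phosphorylation had 41 of 79 (51.9%), with 80 gained sites. Control livers had at most 1 member of any of these lists with an exonic peak. The Pio livers had between 9 and 72 of the ribosomal protein genes. Exonic peaks in these lists were not limited to WT Pio livers. KO Control livers, without the drug, had 24 to 37 of the ribosomal protein and 24 to 58 of the oxidative phosphorylation genes. KO Pio livers had 32 to 38 and 51 to 61. As background, an exonic peak was found in 0.132 to 0.451% of all protein-coding genes in Control livers and 1.14 to 14.6% in Pio livers. In KO Control livers this share was 11.3 to 25.8%, and in KO Pio livers 24.2 to 29.0%. KO lists differ in depth and cutoff, so WT and KO counts are not set against each other. No member of any of the 29 lists had a lost site, where only 0.0456% of all protein-coding genes had one, so this says nothing particular about the lists.

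Among the ribosomal protein genes Rpl32 led, with fold enrichments of 4.02, 23.9, 30.1, 2.45 and 23.5 in Pio livers 1 to 5, followed by Rps27rt, Rps27 and Rpl8 with means of 14.4 ± 8.13, 13.7 ± 9.02 and 13.6 ± 10.8 (SD, n = 5). Among translation factors, Eef1a1 and Eef1g (elongation) and Eif4g2 and Eif1 (initiation) had means of 14.4 ± 7.18, 13.8 ± 6.41, 11.3 ± 5.43 and 10.8 ± 6.86. Among RNA-binding proteins, Hnrnpa2b1, Srsf1, Pcbp2 and Snrpd1 had 12.4 ± 6.12, 7.67 ± 4.27, 6.98 ± 2.22 and 6.69 ± 1.74. Among proteasome subunits, Psmb3, Psme1, Psmb5 and Psma1 had 8.81 ± 4.48, 6.65 ± 3.03, 6.50 ± 3.09 and 6.46 ± 2.82. Among chaperones, Hspa5 (BiP) had 14.8 ± 8.06, Hsp90b1 9.03 ± 3.13 and Cct7, a subunit of the cytosolic chaperonin, 5.59 ± 2.52. All of these sites were called in 5 of 5 Pio livers and in 0 of 5 Control livers.

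Genes of energy metabolism were mixed. In oxidative phosphorylation, Atp5g3, Atp5b and Atp5a1 (subunits of ATP synthase) had mean fold enrichments of 15.1 ± 10.7, 14.3 ± 10.4 and 13.8 ± 7.99, and Ndufv2 (complex I) had 14.8 ± 9.79. Of 27 fatty acid oxidation genes 6 (22.2%) had a gained exonic site. Among them, Etfb, Etfa and Hadhb, which carry electrons from or perform β-oxidation, had 6.66 ± 4.55, 5.29 ± 1.14 and 4.95 ± 0.970 in 4 livers each. Of 24 genes of cholesterol and fatty acid synthesis 2 had one (Fdft1, 4.80 ± 1.29, and Elovl6, 3.72 ± 0.873), and of 22 glycolytic genes 6, led by Aldoa (15.4 ± 6.63 in 5 livers).

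Marker genes of liver and of other tissues were read in the same way. Peaks in exons do not measure expression, so these lists cannot tell the tissue or cells of origin. The lists were chosen with earlier results of these data known. Of 30 secreted liver protein genes, among them Alb, Apoa1 and Ttr, 0 had a gained exonic site, and no Pio liver had an exonic peak in any of them. At the 5% of all genes, few of 30 would have a gained exonic site in any case. In Control livers up to 11 of the 30 had an exonic peak, all 11 in Control liver 5. Of 30 hepatocyte enzyme genes 3 had a gained exonic site, namely Ugt2b1 (glucuronidation, 9.93 ± 3.92), Pck1 (gluconeogenesis, 7.35 ± 2.37) and Adh1 (alcohol oxidation, 14.4 ± 6.12). Some genes used as markers of other tissues had gained exonic sites. Of 20 intestinal epithelial genes 8 (40%) had a gained exonic site. Krt8, Krt19, Krt20 and Lgals4 led with 13.8 ± 5.64, 10.5 ± 4.87, 7.95 ± 4.25 and 7.40 ± 2.19 (SD over 4 Pio livers each), with Vil1, Krt18, Cdh17 and Pigr as the others. Pio livers 1 to 5 had exonic peaks in between 0 and 12 of the 20, and HFD-Pio livers in 1 to 8. The median was 8 in both groups. Control and HFD livers had them in 0. KO Control and KO Pio livers had them in 0 to 1, where 11.3 to 29.0% of all protein-coding genes had an exonic peak. Fabp2, Lct, Sis, Phgr1, Reg3b, Reg3g, Tff3 and Lypd8 had an exonic peak in no Pio liver. Krt8, Krt18, Krt19 and Pigr are not particular to intestine and are found in cells of the liver as well, bile duct cells among them.

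Of 15 smooth muscle genes 8 (53.3%) had a gained exonic site, led by Myl6 (14.96 ± 11.6), Acta2 (9.79 ± 5.65), Actg2 (8.43 ± 2.57) and Myl9 (14.6 ± 7.16 in 4 livers). Acta2 and Actg2 are actin genes, for which the gene named is uncertain as said above. Pio livers had between 1 and 9 of the 15 with an exonic peak, HFD-Pio livers 4 to 9, and Control and HFD livers 0. KO Control livers, without the drug, had 6 to 8 of the 15 and KO Pio livers 7 to 8. Of all protein-coding genes, KO Control livers had an exonic peak in 11.3 to 25.8% and KO Pio livers in 24.2 to 29.0%. Extracellular matrix and stromal genes had 5 of 18, among them Vim, Sparc, Col3a1 and Col1a1. The other marker lists were near or below the share of all genes. Neuronal genes had 1 of 30 (Tubb3), skeletal muscle 1 of 17 (Acta1), myelin and astrocyte genes 1 of 12 (Glul, also a liver enzyme), lymphoid and myeloid genes 1 of 14 (Cd74), and pancreas, kidney, lung, testis and adipocyte genes 0 of 12, 10, 8, 10 and 10. The part of other cell types in the gained sites was not tested.

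**Figure D4:**
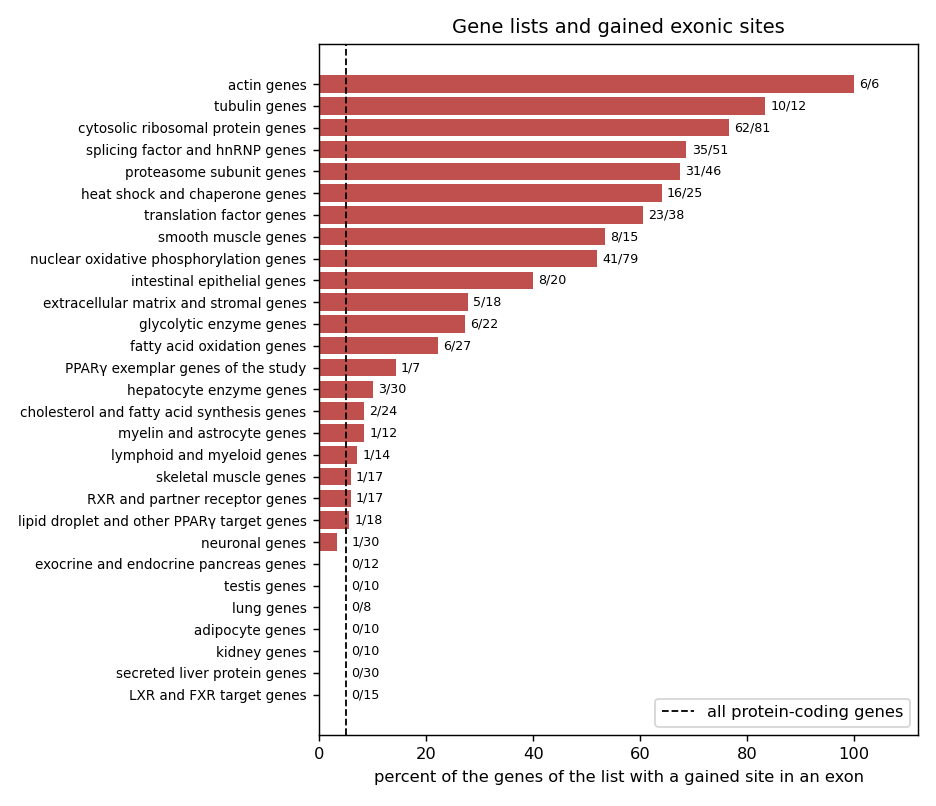
Percent of the genes of each of 29 lists that had a gained site in an exon, with the number of genes beside each bar and the share of all protein-coding genes (5%) as the dashed line. Actin, tubulin, ribosomal protein, splicing, proteasome, chaperone and translation genes stand above 60%. Secreted liver protein, LXR and FXR target, pancreas, kidney, lung, testis and adipocyte genes stand at 0. Those lists hold 8 to 30 genes, of which few or none would be found at the 5% of all genes.

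The 7 PPARγ exemplar genes, which the study also followed by RT-qPCR of RNA, were examined with every site in the gene or within 5 kb upstream. Cav1 (caveolin) had 5 sites, of which a coding exon site (chr6:17307785-17308031) was gained, with 4.49, 3.74 and 3.64 in Pio livers 1 to 3. Cfd, the adipokine complement factor D, had 1 site, called in 4 Pio livers with a mean of 5.10, which lay upstream in the processed pseudogene Gm19810. Cd36, a fatty acid transporter, had 6 sites, each called in 1 Pio liver, and Mogat1 (monoacylglycerol acylation) had 1 such site. Plin4, a lipid droplet coat protein, had 1 site, called in 1 Control liver only. Cidec and Fabp4, a lipid droplet protein and a fatty acid carrier, had 0 sites. Thus 1 of 7 genes had a gained site of its own, and it was exonic.

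Of the receptor genes, Pparg itself had 11 sites, and 3 of its 7 exonic sites were gained. The coding exon site at chr6:115462983-115463295 had 6.84, 6.55, 5.47 and 4.69 in Pio livers 1, 2, 3 and 5, and a neighbour at chr6:115473089-115473293 had a mean of 5.48 over 4 livers. The third, in the 3′ UTR, had 3.71 over 3. Its 4 intronic sites were each called in 1 liver, 1 in Pio and 3 in Control. Rxra had 1 site, in 1 Pio liver, Rxrg had 1 site, in 1 Control liver, and Rxrb had 0. In the list of 17 RXR and partner receptor genes only Pparg had a gained exonic site (5.88%), and 2 had a gained site of any kind. Of 18 further lipid droplet and PPARγ target genes 1 had a gained exonic site (Ucp2, mitochondrial uncoupling, 4.32 ± 0.496 over 3 livers), and of 15 LXR and FXR target genes 0. These shares were near or below the 5% of all genes.

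Livers that the rule had not used were then examined. Of the 3919 gained sites, HFD-Pio livers 1 to 5 called 91.3, 14.1, 17.4, 86.3 and 49.96%, and HFD livers 1 to 5 called 0.102, 0.0766, 0.128, 0.0255 and 0%. Every HFD-Pio liver lay above every HFD liver, and the means were 51.8 ± 36.6% and 0.0663 ± 0.0529% (SD, n = 5 each; exact permutation p = 0.00794, adjusted p = 0.0198 over 5 tests). As background, these livers called 0.986 to 8.60% and 0.188 to 0.517% of all 75674 sites. The fragment estimate was 47, 169, 184, 46 and 47 bp in HFD-Pio livers 1 to 5, and the livers with the longer estimates called the fewest. The part of fragment length in this was not tested. The 401 gained sites outside annotated exons behaved alike, with 50.1 ± 36.0% in HFD-Pio and 0.549 ± 0.410% in HFD livers (exact permutation p = 0.00794, adjusted p = 0.0198). Lost sites were called at 7.62 ± 9.87% in HFD-Pio and 8.57 ± 3.98% in HFD livers (exact permutation p = 1, adjusted p = 1). In the share of exonic peaks, Pio livers stood above Control livers by 20.5 percentage points and HFD-Pio livers above HFD livers by 17.2. The gap between these differences did not pass a permutation of the diets (p = 0.612). Short fragment estimates occurred only in livers given the drug, so drug and library cannot be told apart here.

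In KO livers on control diet, gained sites were called with and without Pio. KO Pio livers called between 32.05 and 36.1% of the gained sites and KO Control livers between 20.1 and 39.0%, with means of 33.6 ± 1.67% and 30.9 ± 7.90% (SD, n = 5 each; exact permutation p = 0.468, adjusted p = 0.585). As background, KO Pio livers called 3.73 to 4.46% and KO Control livers 2.15 to 4.58% of all 75674 sites. Outside annotated exons the means were 19.7 ± 2.40% and 22.6 ± 4.84% (exact permutation p = 0.278, adjusted p = 0.463). RXR stands in the titles of the KO Pio samples, but no antibody is given in their labels. KO libraries were shallower and were called at a q cutoff rather than a p cutoff, so KO livers are compared with KO livers only. Among WT livers, the exons of Pparg held a peak in 4 Pio, 3 HFD-Pio and 0 HFD livers. Among KO livers, they held one in 0 KO Control and 0 KO Pio livers, and a peak list does not measure the deletion itself, so these values are no check of the knockout.

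**Figure D5:**
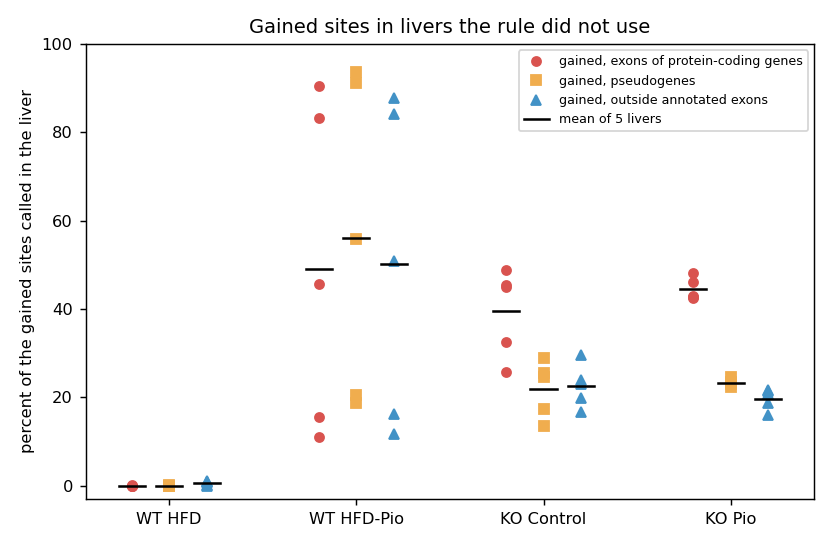
Percent of the gained sites called in each liver of 4 groups that the rule did not use, for gained sites in exons of protein-coding genes, in pseudogenes and outside annotated exons, with the mean of 5 livers as a line. HFD livers lie near 0, HFD-Pio livers spread from 11.03 to 93.6%, and KO Control and KO Pio livers overlap.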

How the data were processed

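Liver chromatin was immunoprecipitated with a pan-RXR antibody and sequenced as single reads. Per the labels the authors aligned reads to mm10 with Novoalign, and per the file headers MACS2 2.1.1.20160309 was run by them on every ChIP library with its matched input, at p 0.001 in the 20 WT libraries and q 0.05 in the 20 KO libraries. The deposited value used here is the ratio of ChIP to input at the summit (fold enrichment). The deposited lists also give the pileup signal, a -log10 p and a -log10 q value. Depth was read from the headers. Both deposited lists of each of the 40 libraries held the same peaks. The lists hold no read counts, so no counting interval was computed.

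Peaks on chromosomes 1 to 19, X and Y were used, with 1 interval per peak and its strongest summit. Summits were placed on GENCODE M21 (GRCm38, the build of the files) in the order coding exon, UTR, pseudogene, other exon, intron, 5 kb upstream, 1 kb downstream, elsewhere. Sequences and pseudogenes called RefSeq are from GRCm38.p6. Groups came from the titles. Means were compared by exact two-sided permutation over 252 assignments, with Benjamini-Hochberg adjustment over 12 measures or 5 recurrence tests, and calls used 0.05. Nothing says that samples came from separate litters, and p-values measure the spread between these livers. Sites named were the first 3 per annotation class by Pio livers called and then mean fold enrichment, the first 5 lost, the first 3 common to both groups, the 10 genes with most gained exonic sites and up to 4 members per list. Exemplar and receptor genes were named outright, and the sites beside the threshold were picked as the strongest there. Some genes and sequences that these rules pick are not reported here. Members, lists and rules were chosen with earlier results of these data known. Scripts were tested on simulated data. Tests used scipy 1.17.1 and numpy 2.4.6 in Python 3.11.15, tables pandas 2.3.3, sequences pysam 0.24.0, and plots matplotlib 3.10.9. Where a gene symbol had several Ensembl identifiers, the lowest was taken. Alternatives were other cutoffs, list lengths, site rules, livers left out and pairing by number.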

Additional observations from a re-analysis of the deposited data

Results flagged for a closer look

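Of 56 groups of 5 values checked, 6 had a value far from the others by Dixon's criterion, where chance gives about 1 in 20 (2.8). Pio liver 1 stood high in the share of peaks in 3′ UTRs (6.61%) and in log2 median fold enrichment (2.19), and low in the share elsewhere outside genes (20.96%). Control liver 5 stood high in the share in 5′ UTRs (0.193%), and it is also the Control liver with exonic peaks in 11 secreted liver protein genes. Fold enrichment in Pio liver 3 was high at Gm18119 (50.3) and at the site upstream of Dynlrb2 (15.5).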

How the results depend on the processing

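The shares of peaks in exons and in pseudogenes stayed above Control at every peak cutoff and list length run, with any-base overlap and without each liver. Their calls were lost in pairing by liver number (replicate block: 20.5 and 15.9 percentage points, exact paired p = 0.0625, the smallest 5 pairs allow), as were those for gained sites in HFD livers (51.7 in all, 49.6 outside exons). Same-numbered livers correlated from -0.134 to 0.212, and 1 of 5 best with its own number, so that the numbers were not taken as pairs. Gained sites numbered 1744 at a -log10 q of at least 5, 2081 at 5-fold enrichment, 728 in lists shortened to 1036 peaks, 612 in both Pio livers with longer fragments, 2544 for 4 or more livers, 6259 for 2 or more and 401 outside annotated exons. Leaving out 1 liver gave 2566 (without Pio liver 3) to 3938. Lost sites numbered 4 at q 0.05, 1 at a -log10 q of at least 5, 4 at 5-fold enrichment, 0 for 4 or more livers, 671 for 2 or more and 37 with 1 Pio liver allowed. Leaving out 1 liver gave 1 to 27 lost sites, with 1, 2 and 5 without Control livers 4, 2 and 3. The difference in log2 number of peaks (1.51) passed at a -log10 q of at least 5 (3.97, exact p = 0.0159), but was 0.0426 (exact p = 1) with the Pio livers of longer fragments and 0.384 (exact p = 0.627) for covered bases. In shortened lists the log2 number outside exons turned to -2.60, log2 median fold enrichment to 1.08 and the DR1 share to 2.86. With the Pio livers of longer fragments the number outside exons was -0.82 and median fold enrichment 0.0799. Median fold enrichment lay within -0.0669 to 0.0435 without each liver. The DR1 difference was -0.0113 at 1 mismatch. In KO livers the difference was -0.587 in shortened lists, and outside exons it was -4.44 there (exact p = 0.00794) and 0.349 for 4 or more livers. Outside exons in HFD livers, leaving out 1 liver gave 40.2 to 59.2 (exact p up to 0.0556), and for lost sites -5 to 0.952, or 3.33 with the HFD-Pio livers of longer fragments, chosen after seeing the data. The cause of these shifts was not tested. Of 31 named sites, 25 met the rule in shortened lists and 27 in the Pio livers of longer fragments.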
